A study of Oryza sativa with 6 samples.

Results

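The glycoside hydrolase family 17 (GH17) genes of rice were examined in roots exposed to mercury (Hg). The genes were taken from the locus list under the GH17 heading of the study's table of cell wall genes, which has 64 entries. Of these, 61 carried a Rice Annotation Project (RAP) locus, 60 of the 61 had a probe on the array and 51 were bright enough to be tested, among 21843 genes tested in all. The list is of family members by annotation.

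GH17 enzymes cut beta-linked glucans. Most plant members are beta-1,3-glucanases, also called glucan endo-1,3-beta-glucosidases, which hydrolyse callose, the beta-1,3-glucan that plants deposit at plasmodesmata, cell plates and wounds, and the related glucans of fungal walls. Some of them are pathogenesis-related proteins, and a smaller group in grasses cuts the (1,3;1,4)-beta-glucan of the wall.

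Six-day-old seedlings of Oryza sativa L. cv. TN-67 were exposed to Hg, and controls of the same cultivar to water. The study's methods give the dose as 25 µM, whereas the sample labels give it in mM. Short-exposure RNA was a pool of the 1 h and 3 h treatments and long-exposure RNA was from 24 h. Each exposure had 3 two-colour arrays of biological replicates, with Hg-treated root RNA in Cy5 and control RNA in Cy3 on all 6 arrays, so that a dye effect and an Hg effect cannot be told apart. The pool of 2 times hides any change between 1 h and 3 h. The methods state that RNA came from root tips, and the labels say roots.

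Between 29106 and 34927 spots per array were well above background in the Hg channel, and replicates correlated at r = 0.885 to 0.927 over genes. The root genes Lsi1, Lsi2 and RCc3 were well above background in the control channel on 6 of 6 arrays. The light-harvesting gene Os01g0600900 and the small Rubisco subunit gene Os12g0291400, both of green shoots, were so on 0 arrays. A second Rubisco gene, Os12g0274700, was so on 0 to 5 arrays depending on the probe, with a highest control signal of 93.0. Short replicate 1 lay on a slide of its own, short replicates 2 and 3 shared a slide and the 3 long replicates shared another. Slide and exposure can therefore not be told apart in any comparison of long with short exposure.

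Several beta-1,3-glucanase genes rose strongly with Hg, and most of the family was not called. A gene was called up or down where limma gave a Benjamini-Hochberg adjusted p below 0.05 over all genes tested and the mean changed at least 2-fold. At short exposure 10 of 51 GH17 genes rose and 5 fell, where 11.6% of all genes tested were called up and 8.08% down. At long exposure 13 rose and 2 fell, where 8.99% of all genes were called up and 6.03% down. The median log2 ratio of Hg over control was 0.20 for the GH17 genes at short exposure and -0.13 for all genes tested. At long exposure the medians were 0.38 and -0.06. The GH17 ratios ranged from -1.92 to 3.53 at short exposure and from -2.02 to 4.89 at long exposure. In a bulk tissue, fewer cells of a type and less RNA per cell cannot be told apart.

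Both exposures shared 9 of the genes that rose and 1 that fell. Another gene rose at short exposure alone, 4 rose at long exposure alone, 4 fell at short exposure alone and 1 fell at long exposure alone, as the calls stand. Os03g0656800 is among the 9 and Os08g0326500 among the 4 that fell at short exposure alone. Each passed the signal minimum in 1 group alone, the one where it was high. Os04g0412300, which fell at long exposure alone, passed the minimum through the control channel alone, the channel where it was high. The calls of these genes, also in the counts for each exposure, are therefore not independent of the filter. Over all genes tested, 4.43% rose and 1.76% fell at both exposures, 7.16% rose at short and 4.57% at long exposure alone, and 6.32% fell at short and 4.27% at long exposure alone. No GH17 gene was called in opposite directions, and 0.779% of all genes were. Each of the 15 genes called at an exposure had the same sign on all 3 of its arrays. Scaling mattered for the downward calls at short exposure. With each array centred on its median, 11 GH17 genes were up and 2 down, and with normexp background correction and loess 9 were up and 1 down. Over all genes the share of calls that were up was 58.9% at short exposure, 69.3% after centring and 82.5% after normexp and loess. At long exposure it was 59.9%, 67.0% and 72.5%. Centring raised the median of all genes from -0.13 to near 0 at short exposure.

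Leaving out short replicate 1 moved the upward count at short exposure from 10 to 4. Over all genes it moved from 2528 of 21811 to 2362 of 21801. The 4 were Os01g0941500, Os01g0947000, Os02g0532900 and Os03g0656800. The remaining 6 had log2 means of 0.95 for Os01g0713200, 1.64 for Os01g0940700, 1.71 for Os01g0940800, 1.79 for Os01g0944500, 1.80 for Os07g0539900 and 1.85 for Os01g0941400. Their adjusted p in limma lay between 0.0617 for Os01g0940800 and 0.138 for Os07g0539900. Since replicates 2 and 3 shared a slide, these are also the values within that slide.

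**Figure D1:**
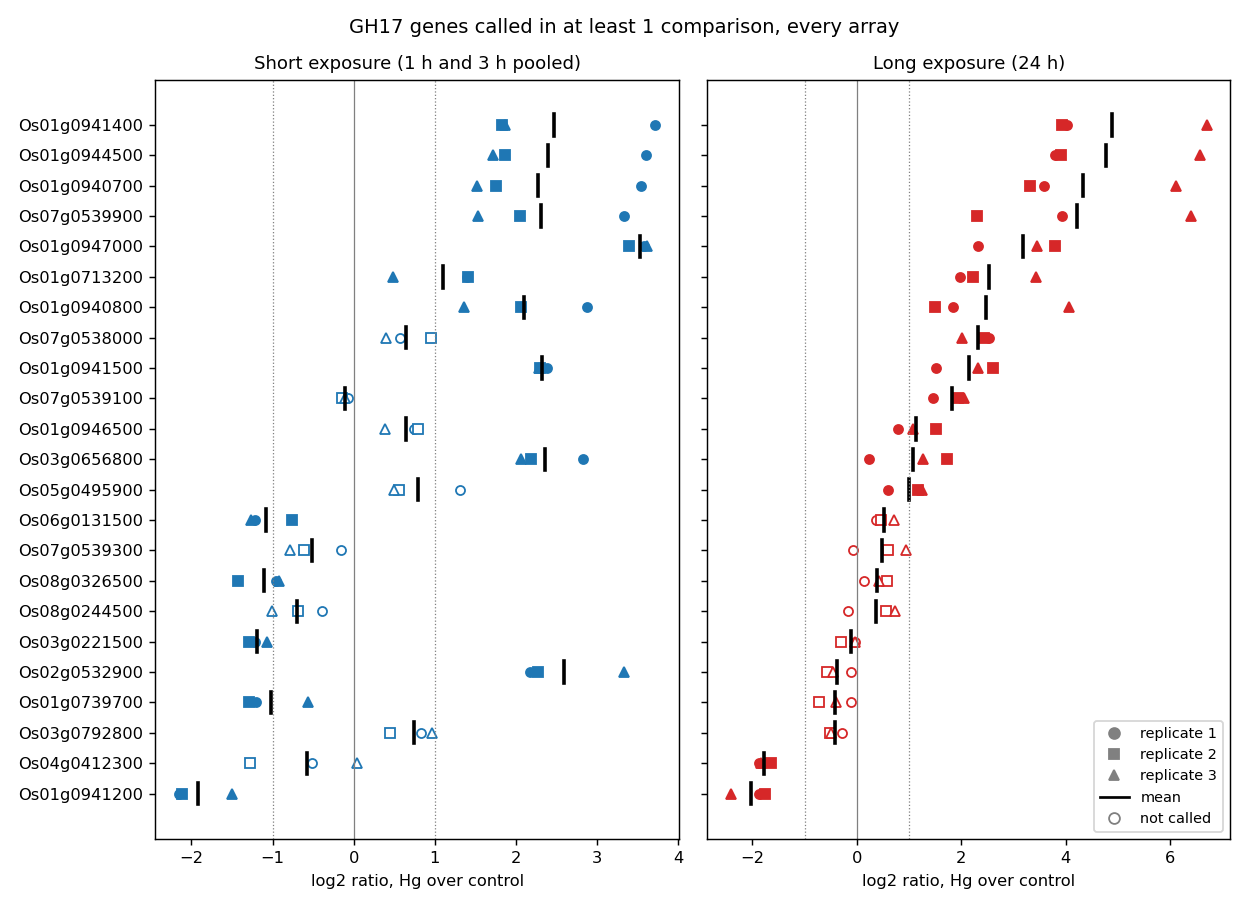
Log2 ratio of Hg over control (x axis) on every array for the 23 GH17 genes called at an exposure or for the difference between exposures, with short exposure in the left panel and long exposure in the right. Symbols are replicates, black bars are means, filled symbols mark a call at that exposure, and dotted lines mark a 2-fold change. The 4 genes at the top spread over more than 2 log2 units at long exposure, with replicate 3 highest, while Os01g0941500 and Os01g0947000 lie close together at short exposure.

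Of the 9 genes that rose at both exposures, 6 stand near each other on chromosome 1. In the stretch from Os01g0940700 to Os01g0941500, 5 GH17 genes were tested and all were called at both exposures, 4 up and 1 down. All but Os01g0941500 are described as beta-1,3-glucanases.

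Os01g0941400, a beta-1,3-glucanase precursor, had log2 ratios of 3.72, 1.83 and 1.87 on the short arrays and 4.04, 3.93 and 6.70 on the long arrays. Every array was high, and the long arrays were all above the short ones. Its mean rise was 5.55-fold at short exposure (log2 2.47, SE 0.61, adjusted p = 0.0111 in limma) and 29.7-fold at long exposure (log2 4.89, SE 0.61, adjusted p = 0.000874 in limma), the highest mean of the family at 24 h. The difference between exposures, 2.42 on the log2 scale, missed the threshold (adjusted p = 0.0573 in limma).

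Os01g0940700, annotated as a beta-1,3-glucanase fragment, had log2 ratios of 3.54, 1.75 and 1.52 on the short arrays and 3.58, 3.32 and 6.13 on the long arrays. The groups overlapped in that short replicate 1 exceeded long replicate 2. It rose 4.83-fold at short exposure (adjusted p = 0.0154 in limma) and 20.3-fold at long exposure (adjusted p = 0.00135 in limma), and its 4 probes had long means between 4.34 and 4.58.

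Os01g0940800, another precursor of this enzyme, had log2 ratios of 2.88, 2.06 and 1.36 on the short arrays and 1.85, 1.49 and 4.06 on the long arrays. Long replicate 3 was the highest array and the other values of both exposures overlapped. The mean rise was 4.29-fold at short exposure (adjusted p = 0.0104 in limma) and 5.53-fold at long exposure (adjusted p = 0.00613 in limma). With normexp and loess both calls stood, at log2 means of 1.48 and 1.52 in place of 2.10 and 2.47. Its control signal was 38.0 to 131, so the size of the rise is uncertain.

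Os01g0941500, described only as a family 17 protein, had log2 ratios of 2.38, 2.29 and 2.28 on the short arrays and 1.51, 2.61 and 2.32 on the long arrays. The short arrays were nearly equal and lay within the range of the long ones. It rose 4.99-fold at short exposure (SD 0.06, n = 3, adjusted p = 0.000147 in limma) and 4.43-fold at long exposure (SD 0.57, n = 3, adjusted p = 0.000314 in limma).

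Os01g0941200 ran the other way. This beta-1,3-glucanase precursor had log2 ratios of -2.15, -2.11 and -1.50 on the short arrays and -1.88, -1.77 and -2.41 on the long arrays. All 6 arrays were low and the exposures overlapped. It was 3.78-fold lower at short exposure (adjusted p = 0.000183 in limma) and 4.06-fold lower at long exposure (adjusted p = 0.00027 in limma), the lowest mean of the family at both exposures. Its control signal was 652 to 968 on the short arrays and 625 to 939 on the long arrays, against Hg signals of 206 to 231 and 121 to 255.

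The second chromosome 1 stretch, from Os01g0944500 to Os01g0947700, holds 10 listed genes, of which 6 were tested. Of these 6, 2 rose at short exposure and 3 at long exposure. Os01g0944500, a family 17 protein, had log2 ratios of 3.60, 1.87 and 1.71 on the short arrays and 3.80, 3.92 and 6.58 on the long arrays. It was high on every array and highest on the same arrays as Os01g0941400. The rise was 5.26-fold at short exposure (adjusted p = 0.0123 in limma) and 27.2-fold at long exposure (adjusted p = 0.000933 in limma).

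Os01g0947000, a beta-1,3-glucanase precursor, had log2 ratios of 3.58, 3.40 and 3.62 on the short arrays and 2.33, 3.79 and 3.46 on the long arrays. At 11.6-fold it had the highest mean of the family at short exposure (log2 3.53, SD 0.12, n = 3, adjusted p = 9.43e-05 in limma). At long exposure it rose 9.14-fold (SD 0.77, n = 3, adjusted p = 0.000228 in limma). Its 2 probes gave means of 3.26 and 3.53 at short exposure, and its control signal was well above background on 2 of 3 short arrays. Across the alternatives the short mean ranged from 2.81 to 3.66.

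A group of 3 neighbours in this stretch carries the description of isoenzyme GV of glucan endo-1,3-beta-glucosidase. One of the 3, Os01g0946500, rose 2.19-fold at long exposure (log2 1.13, SD 0.37, n = 3, adjusted p = 0.00109 in limma) and fell short of 2-fold at short exposure (log2 0.64). Without long replicate 2 its mean was 0.93 and the call was lost. Neither of the other two was called, with log2 ratios of 0.03 and 0.41 for Os01g0946600 and 0.24 and 0.50 for Os01g0946700 at short and long exposure. The glucanase Os01g0947700 was also uncalled, at -0.22 and 0.17.

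Next to them, 3 genes did not reach a signal of 100 in either channel on any array. Os01g0944700, described as isoenzyme GII, reached 11.1 and was well above background on 0 arrays, Os01g0944800 reached 24.4 and Os01g0944900 reached 56.0. The last was well above background on 4 arrays in the Hg channel and 0 in the control channel, so no fold is given for it. Os01g0947500 had no probe.

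Over both chromosome 1 stretches, 6 of 11 tested GH17 genes rose and 1 fell at short exposure, with a median log2 ratio of 2.10, and 7 rose and 1 fell at long exposure, with a median of 2.15. Over all genes, 11.6% rose and 8.08% fell at short exposure (median -0.13), and 8.99% rose and 6.03% fell at long exposure (median -0.06). Outside the 3 stretches, 35 members were tested. Of these, 3 rose and 4 fell at short exposure (median -0.44), and 3 rose and 1 fell at long exposure (median -0.16). Between the chromosome 1 members lie 16 tested loci outside the GH17 list, an interval looked at after the values were seen. Of these neighbours, 4 rose and 1 fell at short exposure and 3 rose at long exposure, with medians of 0.26 and 0.07.

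**Figure D2:**
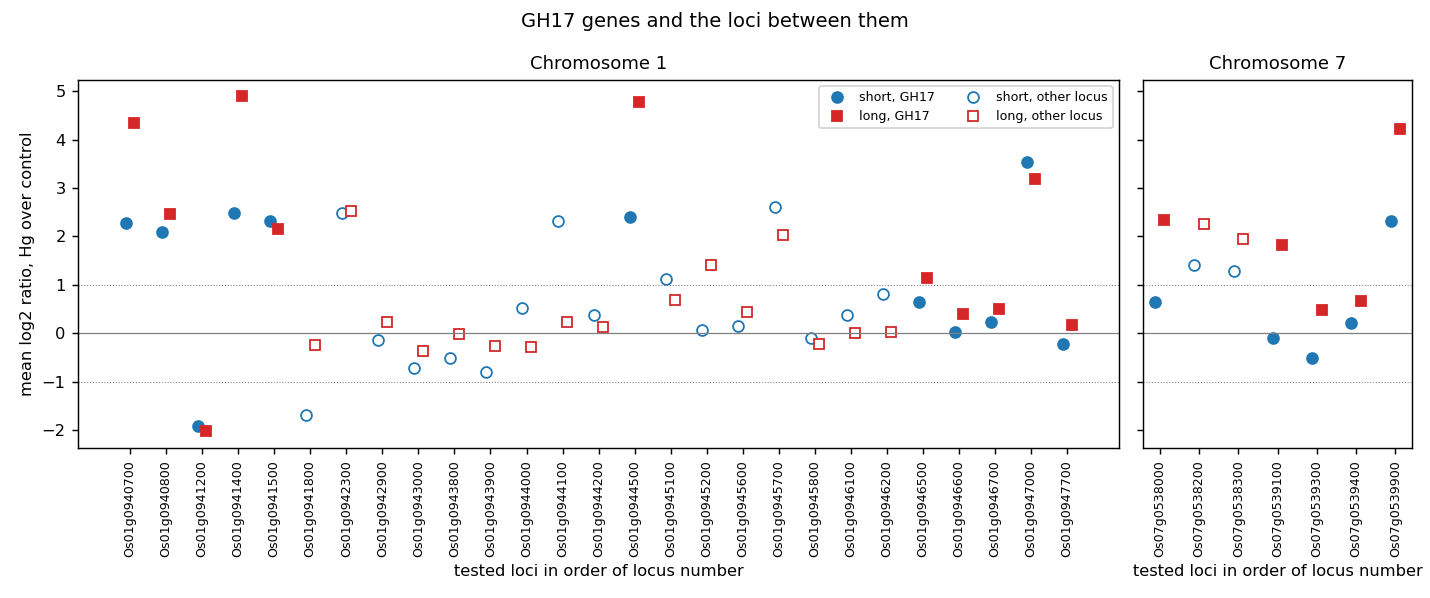
Mean log2 ratio of Hg over control (y axis) for the tested loci of the chromosome 1 and chromosome 7 stretches, in order of locus number along the x axis (not to scale). Circles are short and squares long exposure, filled symbols are GH17 genes, open symbols are loci outside the list, and dotted lines mark a 2-fold change. High GH17 values, up to 4.89, alternate with GH17 genes near 0 and with Os01g0941200 at -1.92 and -2.02.

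On chromosome 7, 5 GH17 genes from Os07g0538000 to Os07g0539900 were tested. One rose at short exposure and 3 at long exposure, and 3 had a higher ratio at long than at short exposure. Over all genes the shares were 11.6%, 8.99% and 9.2%. The last of the 5, Os07g0539900, encodes a beta-1,3-glucanase-like protein and rose at both exposures. Its log2 ratios were 3.33, 2.06 and 1.54 on the short arrays and 3.94, 2.30 and 6.41 on the long arrays. It was high on all arrays with the widest long-exposure spread of the genes described here (SD 2.07, n = 3). The rise was 4.95-fold at short exposure (adjusted p = 0.0279 in limma) and 18.6-fold at long exposure (adjusted p = 0.00292 in limma). Leaving out any 1 short array ended the short-exposure call, with adjusted p between 0.0518 and 0.138 in limma.

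Os07g0538000 and Os07g0539100 in this stretch were called up at long exposure alone. Os07g0538000, a beta-1,3-glucanase precursor, had log2 ratios of 0.58, 0.95 and 0.40 on the short arrays and 2.53, 2.43 and 2.02 on the long arrays. The exposures did not overlap, and the short mean of 0.64 (adjusted p = 0.00613 in limma) missed only the 2-fold threshold. It rose 5.02-fold at long exposure (adjusted p = 0.00012 in limma), and the difference between exposures was 1.68 on the log2 scale (SE 0.20, adjusted p = 0.0011 in limma). With normexp and loess that difference was 0.9993, just under 2-fold, and was not called.

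The family 17 protein Os07g0539100 had log2 ratios of -0.07, -0.14 and -0.10 on the short arrays and 1.46, 1.95 and 2.05 on the long arrays. Short exposure left it near 0 on every array and long exposure raised it on every array. The long-exposure rise was 3.53-fold (adjusted p = 0.000142 in limma) and the difference between exposures 1.92 (SE 0.17, adjusted p = 0.000485 in limma). Across the alternatives tried, the long mean stayed between 1.70 and 2.00 and no call of this gene was lost.

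Os07g0539300 was called only for the difference between exposures, from -0.52 to 0.48 (difference 1.00, adjusted p = 0.0279 in limma), at the edge of the 2-fold threshold, and 9 of 17 alternatives took the call away. Os07g0539400 was not called, at 0.21 and 0.67. The only other tested loci in this interval, 2 in number and outside the GH17 list, rose at both exposures, with medians of 1.34 and 2.11. This interval too was looked at after the values were seen.

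**Figure D3:**
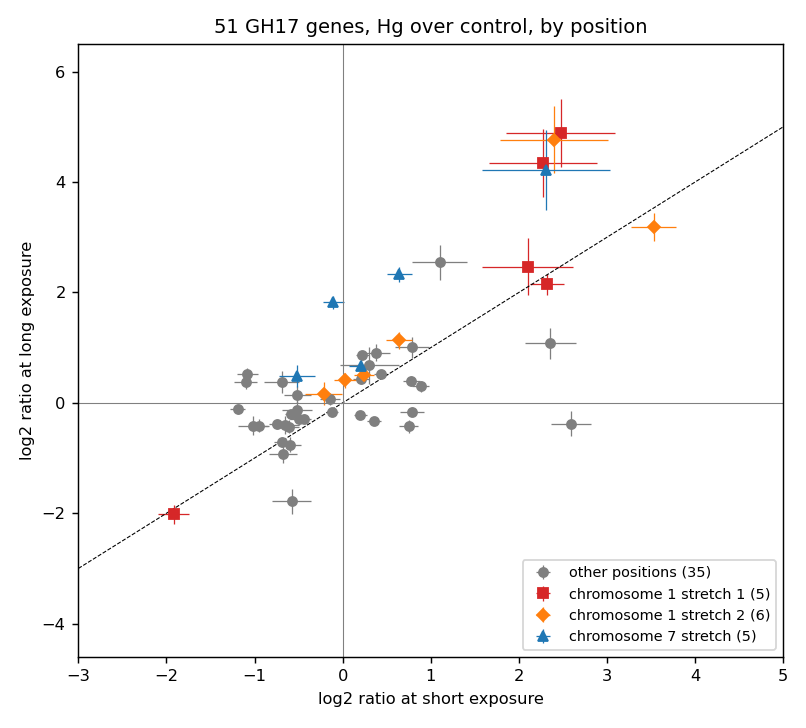
Mean log2 ratio of Hg over control at short exposure (x axis) against long exposure (y axis) for the 51 tested GH17 genes, with standard errors from limma as bars and position as colour and symbol. Points above the dashed diagonal had the higher ratio at long exposure. The 4 means above 4 at long exposure belong to genes of the chromosome 1 and 7 stretches, other genes of the stretches lie near 0, and Os01g0713200, at another position, reaches 2.54.

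Among members at other positions, Os01g0713200, a beta-1,3-glucanase precursor, rose at both exposures. The log2 ratios were 1.40, 1.41 and 0.49 on the short arrays and 1.97, 2.22 and 3.43 on the long arrays. Long values all exceeded short ones. It rose 2.14-fold at short exposure (adjusted p = 0.018 in limma) and 5.82-fold at long exposure (adjusted p = 0.000785 in limma), and the difference was 1.44 (SE 0.44, adjusted p = 0.0332 in limma). That difference lost its call in 7 of 17 alternatives, 5 of which each left out 1 array, with adjusted p of up to 0.0927 in limma. Its 6 probes gave means of 1.10 to 1.24 at short exposure and 2.43 to 2.57 at long exposure. Leaving out short replicate 1 or 2 ended the short-exposure call, with means of 0.95 and 0.94.

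Os02g0532900, a family 17 protein, rose at short exposure alone. The log2 ratios were 2.17, 2.27 and 3.33 on the short arrays and -0.11, -0.57 and -0.46 on the long arrays. The ratio was high at every short replicate and below 0 at every long one. It rose 6.04-fold at short exposure (log2 2.59, SD 0.64, n = 3, adjusted p = 0.000174 in limma), and at long exposure the mean of -0.38 was not called (adjusted p = 0.184 in limma). The difference of -2.97 (SE 0.32, adjusted p = 0.000879 in limma) was the most negative of the family, and no alternative took that call away. Its control signal was 62.4 to 133 on the short arrays and 249 to 326 on the long arrays.

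Os03g0656800, which encodes a beta-1,3-glucanase-like protein, had log2 ratios of 2.83, 2.18 and 2.06 on the short arrays and 0.23, 1.74 and 1.27 on the long arrays, and was called up at both. The control channel stood well above background on 0 of 6 arrays, and the Hg channel on 2 of 3 arrays of each exposure. The short-exposure fold is therefore given as a bound. This gene passed the signal minimum of 100 only through the Hg channel of the short arrays, the group where it was high. It was at least 1.74-fold higher with Hg at short exposure (adjusted p = 0.000581 in limma). At long exposure the same reckoning gave 1.23-fold (adjusted p = 0.0164 in limma). That value is the measured ratio after normexp and loess and is not a lower limit. Each of these values set the mean Hg signal against, per array, the higher of the dim control signal and the lowest signal well above background. This was done after normexp, loess and scaling between arrays, and is open to dye bias. The p-values are those of the processed signals without that correction. With normexp and loess neither call was made, at log2 means of 0.96 and 0.30. Its 2 probes had short-exposure means of 2.36 and 1.07, both called up. At long exposure they differed in call, with means of 1.08 and -0.28, and 5 of 18 alternatives took the long-exposure call away.

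The beta-1,3-glucanase precursor Os05g0495900 rose 2.01-fold at long exposure (log2 1.01, SD 0.35, n = 3, adjusted p = 0.00433 in limma) after 0.79 at short exposure. It sat at the threshold, and the call was lost without long replicate 2 (0.92) or long replicate 3 (0.89).

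Genes that fell at short exposure alone were all described as family 17 proteins without a stated activity. Os03g0221500 had log2 ratios of -1.22, -1.29 and -1.07 on the short arrays and -0.03, -0.30 and -0.04 on the long arrays. The short arrays were all low and the long arrays near 0. It was 2.28-fold lower at short exposure (adjusted p = 8.99e-05 in limma) with a log2 mean of -0.12 at long exposure and a difference of 1.07 (SE 0.12, adjusted p = 0.000973 in limma).

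Os08g0326500 had log2 ratios of -0.96, -1.42 and -0.92 on the short arrays and 0.14, 0.57 and 0.42 on the long arrays. This gene was dim at short exposure, well above background on 1 of 3 arrays in the Hg channel and 2 of 3 in the control channel. The mean was -1.10 at short exposure (adjusted p = 0.000499 in limma) and the difference 1.48 (adjusted p = 0.00133 in limma). The gene passed the signal minimum of 100 only through the Hg channel of the long arrays, the group where it was high, and its highest short signal was 71.8. With normexp and loess the short mean was -0.26 and the difference 0.56, neither called, so the size of both is uncertain.

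Os06g0131500 had log2 ratios of -1.22, -0.76 and -1.27 on the short arrays and 0.36, 0.46 and 0.71 on the long arrays. All short values were below 0 and all long values above 0. It was 2.12-fold lower at short exposure (adjusted p = 0.000438 in limma), its log2 mean of 0.51 at long exposure did not reach 2-fold, and the difference was 1.59 (SE 0.17, adjusted p = 0.000888 in limma), a call that no alternative took away.

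Os01g0739700 was 2.03-fold lower at short exposure (log2 -1.02, SD 0.40, n = 3, adjusted p = 0.00214 in limma) and -0.42 at long exposure. Of the genes down at short exposure, Os01g0739700, Os06g0131500 and Os08g0326500 lost the call when arrays were centred on their medians, at -0.89, -0.95 and -0.97. With normexp and loess these means were -0.65, -0.58 and -0.26, and Os03g0221500 also lost its call, at -0.98, with a difference between exposures of 0.93 that was no longer 2-fold. Each of the first 3 also lost it without 1 of the short arrays, replicate 1 or 2 for Os01g0739700 (-0.93 and -0.89), replicate 3 for Os06g0131500 (-0.99) and replicate 2 for Os08g0326500 (-0.94).

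Os04g0412300, another family 17 protein, had log2 ratios of -0.51, -1.28 and 0.05 on the short arrays and -1.87, -1.64 and -1.83 on the long arrays. All long values lay below all short ones. It was 3.44-fold lower at long exposure (SD 0.12, n = 3, adjusted p = 0.000883 in limma), and the difference was -1.20 (SE 0.32, adjusted p = 0.0205 in limma). Its signals were low, well above background on 1 of 3 short arrays in each channel. The gene passed the minimum of 100 through the control channel alone, the channel where it was high. Its calls are therefore not independent of the filter. With normexp and loess the long mean was -0.74 and not called.

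Comparing exposures directly, 8 of 51 GH17 genes had a higher ratio at long than at short exposure and 4 a lower one, where 9.2% and 10.1% of all genes tested were called in those directions. The median difference was 0.35 for the GH17 genes and 0.04 for all genes. The 8 were Os01g0713200, Os03g0221500, Os06g0131500, Os07g0538000, Os07g0539100, Os07g0539300, Os08g0244500 and Os08g0326500. Of these 8, 3 had fallen at short exposure and were not called at long exposure, namely Os03g0221500, Os06g0131500 and Os08g0326500. Os08g0244500, a glucanase-like gene, went from -0.69 to 0.38 without a call at either exposure (difference 1.07, adjusted p = 0.0187 in limma). The 4 with a lower ratio were Os02g0532900, Os03g0656800, Os03g0792800 and Os04g0412300. Of these, Os03g0792800, also glucanase-like, went from 0.75 to -0.43 (difference -1.17, adjusted p = 0.00178 in limma). The count of 8 was 5 without short replicate 3 and 5 without long replicate 3. The count of 4 was 2 without short replicate 1, short replicate 3, long replicate 1 or long replicate 3. Os08g0326500 of the 8 and Os03g0656800 of the 4 passed the signal minimum in 1 group alone, the one where each was high. Os04g0412300 of the 4 passed it through the control channel alone, the channel where it was high. None of the 4 genes with means above 4 at long exposure was called for the difference.

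The strongest genes spread widely at long exposure, and there the control channel varied more than the Hg channel. In Os01g0940700 the Hg signal was 3479, 2073 and 1557 on the short arrays and 7893, 15398 and 11299 on the long arrays, and the control signal was 299, 614 and 541, then 659, 1542 and 162. The control signal was lowest in short replicate 1 and long replicate 3, where the ratio was highest.

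Os01g0944500 had control signals of 438, 787 and 910 on the short arrays and 1132, 1967 and 244 on the long arrays. Os01g0941400 had 254, 397 and 484, then 638, 1064 and 133. Os07g0539900 had 32.1, 91.6 and 59.2, then 137, 352 and 24.3. Each of these sets had its lowest short value in replicate 1 and its lowest long value in replicate 3.

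With each channel centred on its median in log2 units, the SD of the control signal over the long arrays was 1.61 for Os01g0940700, 1.55 for Os01g0941400 and 1.54 for Os01g0944500, and the SD of the Hg signal was 0.35, 0.19 and 0.33. For these genes the order was reversed over the short arrays. The SDs there were 0.48, 0.56 and 0.59 for the control signal and 0.66, 0.86 and 0.69 for the Hg signal. Os07g0539900 had SDs of 1.93 for the control signal and 0.28 for the Hg signal over the long arrays. Over the short arrays its control SD was again the larger, at 0.59 against 0.41. The genes were picked for this description after their values were seen. By count, 5 of 51 GH17 genes (9.8%) had a control signal in long replicate 3, after centring, at least 2-fold under the lower of the other long arrays, and 204 of 21783 genes did so in all (0.937%). Among all genes up at long exposure, 55.6% had their highest ratio in long replicate 3, and 8 of the 13 GH17 genes did. At short exposure 51.7% of all genes up had their highest ratio in replicate 1, and 7 of the 10 GH17 genes did. Without long replicate 3, 11 GH17 genes were up at long exposure. No GH17 spot was saturated. The arrays hold no probe sequences in the files used here, so whether these probes tell near-identical copies apart was not tested, and the matching values of these genes may not be independent.

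**Figure D4:**
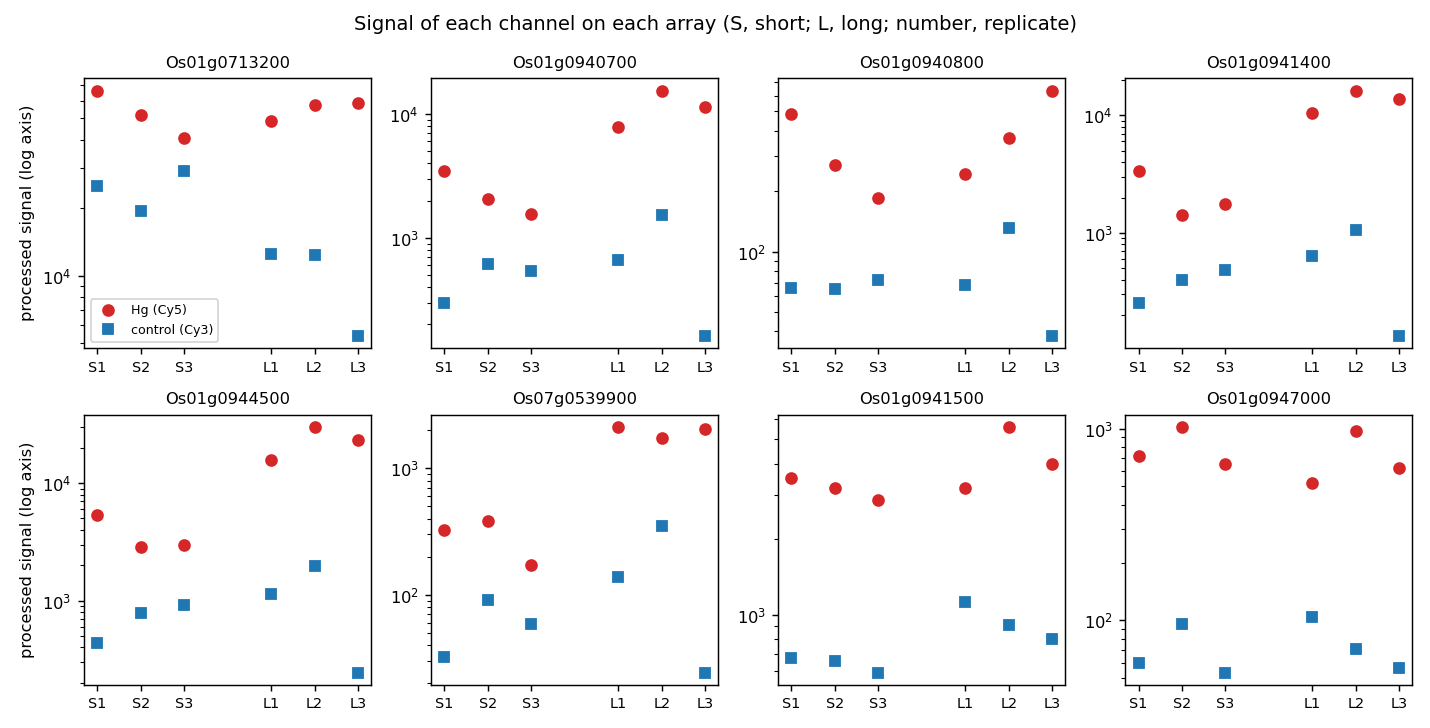
Processed signal (y axis, log scale) of the Hg channel (red circles) and the control channel (blue squares) on each array (x axis) for 8 GH17 genes up at both exposures. S and L are short and long exposure and the number is the replicate. In every panel the control signal of L3 is the lowest of the long arrays (162 for Os01g0940700). In Os01g0941500 and Os01g0947000 it lies nearer the others, at 800 against 1121 and 912, and at 56.6 against 104 and 70.6.

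By description, 21 tested members are named as beta-1,3-glucanases. Of these, 7 rose and 1 fell at short exposure (median 0.64) and 10 rose and 1 fell at long exposure (median 0.86). Of the 28 members known only as family 17 proteins, 3 rose and 4 fell at short exposure (median -0.52), and 3 rose and 1 fell at long exposure (median -0.14). Of all genes tested, 11.6% rose and 8.08% fell at short exposure (median -0.13). At long exposure 8.99% rose and 6.03% fell (median -0.06). The remaining descriptions, (1,3;1,4)-beta-glucanase for Os05g0375400 and Autophagy 4a for Os04g0682000, covered 2 tested genes, neither called. Os05g0375400 had log2 ratios of 0.71, 0.52 and -0.32 on the short arrays and -0.31, 1.16 and 1.18 on the long arrays, and was called up at long exposure only without long replicate 1 (1.17). Os04g0682000 stayed between -0.22 and -0.01 on all arrays.

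In all, 28 tested members were called in no comparison, with means between -0.95 and 0.88 at short exposure and -0.93 and 0.91 at long exposure. Os06g0531000 kept 1 short array after outlier spots were left out, so its short mean of 0.79 has no replicate spread of its own. Os10g0160100 was uncalled by its brightest probe (-0.69 and -0.71) and called down at both exposures by its other probe (-1.18 and -1.65). Apart from the 3 chromosome 1 genes above, 6 members stayed under the signal minimum. Of these, Os03g0374600 and Os05g0535100 reached 84.7 and 98.1, and Os06g0590600, Os07g0240200, Os08g0525800 and Os11g0577800 reached at most 13.6.

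Callose synthases, encoded by the glucan synthase-like (GSL) genes, make the beta-1,3-glucan that these hydrolases cut. The same table lists 10 of them with a RAP locus, and 8 were tested. At short exposure 0 rose and 1 fell (median log2 ratio -0.31), and at long exposure 0 were called in either direction (median -0.12). Of all genes tested, 11.6% rose and 8.08% fell at short exposure (median -0.13). At long exposure 8.99% rose and 6.03% fell (median -0.06). The called gene, Os03g0128100, had log2 ratios of -1.21, -0.97 and -0.87 on the short arrays and 0.89, 0.83 and 0.89 on the long arrays. It was below 0 on every short array and above 0 on every long one, with a difference of 1.88 (adjusted p = 0.00029 in limma). Its short mean of -1.02 sat at the 2-fold threshold, and its long mean of 0.87 did not reach it. Whether its short-exposure call depends on the scaling of the arrays was not tested. At an unadjusted p below 0.05 in limma with no fold threshold, 0 of the 8 were up and 8 down at short exposure, and 3 were up and 2 down at long exposure. The unadjusted shares of all genes tested were 28.8% up and 42.9% down at short exposure, and 30.4% up and 37.5% down at long exposure. After adjustment the counts of the 8 were 0 and 6, then 2 and 2. At the adjusted p alone, 27.7% of all genes tested were up and 40.9% down at short exposure, and 28.6% up and 35.3% down at long exposure. The methods' t-test with the 2-fold threshold called 1 gene at short exposure before adjustment and 0 after it, and 0 at long exposure either way.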

How the data were processed

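Roots of Hg-treated and water-treated rice seedlings were compared on 6 two-colour Agilent 4×44K arrays, 3 per exposure, grouped by the sample labels. The deposited intensity values of each spot are signals that Agilent Feature Extraction (10.7.1.1) measured per channel and, as the file headers state, corrected for local background and spatial trend before normalizing the dyes. The log10 ratios (Cy5 over Cy3) in the deposited files came from the same software. For the separate deposited table, how the authors arrived at its log2 values is not given in the sources used here, but at least 99.98% of them lay within 0.01 of the scanner files' log2 ratio on each array (column medians 0.0048, -0.0716, -0.0300, -0.0786, -0.1503 and -0.0479 in the order short replicates 1 to 3, long replicates 1 to 3). That table is not centred, and it runs as Hg over control.

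The log2 ratio of the processed Cy5 and Cy3 signals was used. Control spots were dropped, as were outlier spots (72 to 1185 per array), and replicate spots were averaged by probe. A probe entered the tests if it reached a signal of 100 in some channel of some array, the minimum in the study's methods, and each locus was represented by its brightest probe. With limma (3.58.1) in R (4.3.3), data being read by data.table (1.17.8), a linear model fitted 1 coefficient per exposure over all 6 arrays (4 residual degrees of freedom), tested against 0, and their difference, with Benjamini-Hochberg adjustment over all genes. The scripts were tested on simulated data. Alternatives were the software's log ratio, normexp (offset 50) on median signals with loess (mean signals, as first planned, are not used here), the deposited table, median centring, other filters and probe rules, outlier spots kept, exposures fitted apart, slide as a random block (correlation 0.0755), the methods' t-test, the replicate number as a block, no fold threshold and leaving out each array.

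Genes named are the members called in any comparison, the other members of the chromosome 1 and 7 stretches, members not tested, and those described as (1,3;1,4)-beta-glucanase and Autophagy 4a. Os06g0531000 and Os10g0160100 were named after their values were seen. The members and lists were chosen with earlier results of these data known. Loci and descriptions are those of the array design and the study's table, and the reference gene table paired 0 of the GH17 loci. The number of arrays limits the precision. Figures were drawn with Python (3.11.15) and matplotlib (3.10.9).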

Additional observations from a re-analysis of the deposited data

Results flagged for a closer look

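The ratio of Hg over control differed between long and short exposure in 12 of 51 GH17 genes. This was by a limma test of the difference itself at a Benjamini-Hochberg adjusted p below 0.05 and at least 2-fold. Of all genes tested, 9.2% were called higher at long exposure and 10.1% lower. Os03g0656800 and Os08g0326500 passed the signal minimum only in 1 group, the one where each was high. Os04g0412300 passed it only through the control channel, where it was high. In log2 units, long minus short, the ratio was higher at long exposure by 1.92 for Os07g0539100, 1.68 for Os07g0538000, 1.59 for Os06g0131500, 1.48 for Os08g0326500, 1.44 for Os01g0713200, 1.07 for Os03g0221500, 1.07 for Os08g0244500 and 1.00 for Os07g0539300. It was lower at long exposure in Os02g0532900 (-2.97), Os03g0656800 (-1.28), Os04g0412300 (-1.20) and Os03g0792800 (-1.17). The value of Os03g0656800 is a difference of measured ratios whose control signal stood above background on 0 of 6 arrays, so its size is not established, and 9 of 17 alternatives took the call away. The call of Os01g0713200 was lost in 7, of Os07g0539300 in 9, of Os04g0412300 and Os08g0244500 in 5 each. Os03g0221500, Os07g0538000 and Os08g0326500 each lost theirs in 1, normexp and loess. The long arrays lay on a slide of their own, and slide and exposure cannot be told apart.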

How the results depend on the processing

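Without the fold threshold, 21 GH17 genes were up and 18 down at short exposure, 24 up and 14 down at long exposure, and 8 had a lower ratio at long than at short exposure, where 27.7% of all genes were up and 40.9% down at short exposure, 28.6% up and 35.3% down at long exposure, and 23.9% had a lower ratio. The methods' t-test with Benjamini-Hochberg adjustment called 2 up and 1 down at short exposure and 2 up and 2 down at long exposure, and unadjusted 6 up and 5 down, then 10 up and 2 down. With adjustment the t-test called 918 up and 495 down of 21728 genes at short exposure, and 912 up and 810 down of 21828 at long exposure. The share of all genes at the unadjusted p was not computed, so the unadjusted counts have nothing to be set against. Downward calls at short exposure were 1 with normexp and loess and 2 after median centring, and at long exposure 1 with normexp and loess. Leaving out 1 array gave 4 to 10 up and 4 to 5 down at short exposure, 10 to 15 up and 2 to 3 down at long exposure, 5 to 9 with a higher ratio and 2 to 4 with a lower ratio at long exposure. Over all genes the upward counts then ranged from 2362 to 2633 at short exposure and from 1745 to 2175 at long exposure. For Os03g0656800 the long-exposure mean turned to -0.28 when probes were chosen by being well above background, which took its other probe. The cause of the other changes was not tested.

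With the replicate block, 5 GH17 genes had a higher ratio at long exposure in place of 8, and 3 a lower one in place of 4. Same-numbered short and long arrays correlated at -0.24, 0.02 and -0.18 in their deviations from the exposure means, so the numbers were not taken as pairs.

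Of 744 values of called results under an alternative, 652 kept their direction and call, 91 lost the call and 1 turned. Of 793 uncalled values, 18 gained a call. With 3 arrays per exposure, genes with wide spread such as Os07g0539900 have calls that single arrays decide. Signals near background limit Os03g0656800, Os04g0412300 and Os08g0326500. Control signals were also low in Os01g0940800 (38.0 to 131), Os01g0947000 (53.4 to 104) and Os07g0539900 (24.3 to 352), so the size of their folds is uncertain.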
